A study of Mus musculus with 5 samples.

Results

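Genes of macrophages and other leukocytes were followed in RNA from E11.5 mouse forelimbs, on 5 single-channel Affymetrix arrays. The set held 34 genes, chosen by name from knowledge of macrophages and leukocytes, and all 34 were on the array, with 63 of its 45037 probe sets and 34 of its 18193 named genes. The choice was made with earlier results of these data known. Each gene was followed on its brightest probe set, the one with the highest mean over the 5 arrays, and its other probe sets served as a check. The 2 experimental arrays came from embryos with the genotype Sost-/-; Sostdc1-/-, called double mutants here, and the 3 reference arrays from wild-type embryos. All were of the C57Bl/6 background, and per the labels the embryos of a sample were not pooled. Sost and Sostdc1 encode related secreted antagonists of Wnt and BMP signalling, and the title of the study links them to digit number and to Gli3. The comparison asked how the forelimb transcriptome differs when both antagonists are missing.

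At this stage the macrophages of the mouse embryo descend mainly from progenitors of the yolk sac, which enter the tissues and settle there. Such cells depend on the receptor Csf1r, recognise dying cells, partly through complement and scavenger receptors, and clear them by phagocytosis, which in the limb later includes the cells that die between the digits. Many of their genes are driven by PU.1, the transcription factor encoded by Spi1. Macrophages are a small part of the bud, which consists mainly of mesenchyme under a sheet of ectoderm. In such bulk tissue, fewer cells of a type and less RNA per cell cannot be told apart.

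Before the groups were compared, the arrays were set against their labels. Sost on its brightest probe set stood at log2 intensities of 4.16 and 4.43 in the double mutant arrays and at 6.19 to 6.75 in wild type. The brightest Sostdc1 probe set stood at 8.90 and 8.96, against 8.75 to 9.01 in wild type, while the second stood at 6.28 and 7.35 against 8.94 to 9.42. Which parts of the genes were deleted was not known here, and a probe set that lies elsewhere in the gene is no check. Xist, the RNA of the inactive X chromosome, stood at 12.37 and 11.75 in the double mutant arrays, where the Y-linked Eif2s3y was also high, at 8.36 in both, so that it is uncertain whether each held RNA of 1 embryo. Wild type replicate 1 was high for Xist alone, and replicates 2 and 3 for Eif2s3y alone. The Dap spike-in, an RNA added before labelling, read 6.90 and 7.28 in the double mutant arrays against 3.23 to 3.36 in wild type, so that the preparation of the samples and their genotype cannot be told apart for the values below. The difference between the 3' and 5' control probe sets of Gapdh, a measure of RNA quality and labelling, was 0.16 and 0.27 in double mutants and −0.14 to −0.060 in wild type. For Actb the groups overlapped, at 0.65 and 0.56 against 0.20, 0.24 and 0.68. The limb identity of the tissue showed in its mesenchymal markers, whose mean level over 12 genes was 10.97 and 10.98 in double mutants and 10.90 to 10.98 in wild type.

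Macrophage genes were detected in every array. The growth factor receptor Csf1r, the chemokine receptor Cx3cr1 and the complement gene C1qc, the markers chosen for these cells, lay above the middle of the array (a log2 intensity of 5.41, the median over all tested probe sets), and so did 28 of the 34 members. The other 6 were Msr1, Cd33, Itgam, Itgb2, Aif1 and Cybb. Of these, 3 lay near the floor, with mean levels of 3.29 and 3.46 for Itgam (double mutants, then wild type), Cd33 at 3.64 and 3.48 and Itgb2 at 4.10 and 4.0, where Trpn, a control for an absent transcript, stood at 3.10 and 3.07. Itgam and Itgb2 encode the subunits of the integrin CD11b/CD18, which is high on mature myeloid cells, and a change on such probe sets could be missed.

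Macrophage and leukocyte genes were lower in the double mutants more often than higher. The shares below describe a set chosen with earlier results of these data known, and are no independent test. Of the 34 members, 8 fell, 1 rose and 25 were not called by limma (adjusted p under 0.05 over all 45037 probe sets). Those that fell were C1qc, Fcgr1, Ctss, Laptm5, Coro1a, Lcp1, Cd53 and Dab2, by 1.34-fold to 1.85-fold, and Pf4 rose 1.61-fold. Over all genes by brightest probe set, 8.14% were called lower and 6.56% higher, against 23.5% and 2.94% of the members. Both double mutant arrays lay below all 3 wild type arrays in 17 of 34 members, against 23% of all genes, and above them in 3 members, against 20.2% of all genes. The difference between the groups was below 0 in 26 of 34 members, against 53.7% of all genes. The median difference over the members was −0.19 on the log2 scale, and over all genes −0.02.

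**Figure D1:**
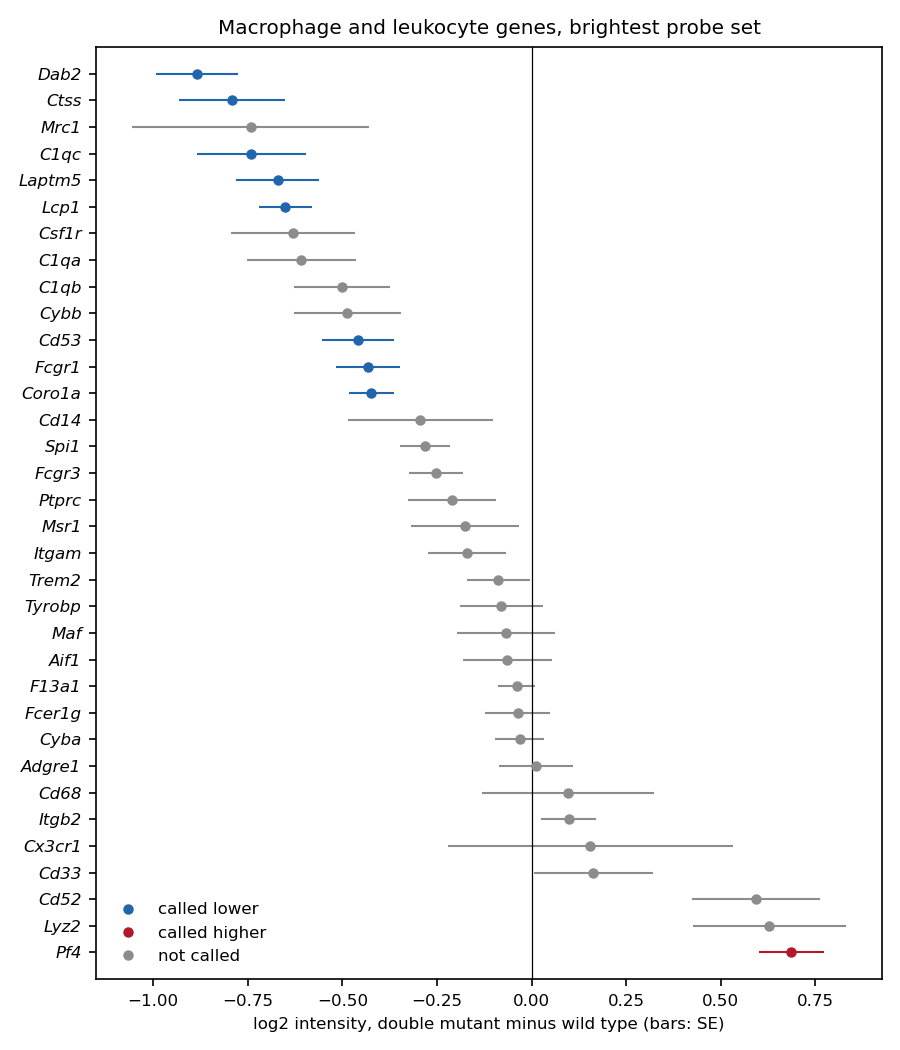
Differences between double mutant and wild type arrays (x axis, log2 intensity) for the brightest probe set of each of the 34 members, with limma's standard error as bars and colour for the call. The 8 genes called lower run from Dab2 at −0.88 to Coro1a at −0.42, and Pf4 at 0.69 is the gene called higher.

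The calls depended on every array. Each array was left out in turn. Members called lower numbered 2 without wild type replicate 1, 0 without wild type replicate 2 and 3 without wild type replicate 3. Over all probe sets, in the same order, 1535, 0 and 3198 were called lower, against 4287 with every array. Calls were therefore lost over the whole array and not only among the members. Without double mutant replicate 1 or 2 that group has 1 array, and the median difference of the members was −0.23 and −0.19. With limma, 14 members were lower at an unadjusted p under 0.05 in the full set (15.3% of all genes were), and 11 to 14 with an array left out. Dab2 and Pf4 were called without double mutant replicate 2, Ctss and Lcp1 without wild type replicate 1, and Laptm5, Lcp1, Dab2 and Pf4 without wild type replicate 3. Over these 5 fits the adjusted p of Lcp1 ran from 0.0372 to 0.0735, that of Dab2 from 0.0417 to 0.087, that of Pf4 from 0.0429 to 0.0868, that of Laptm5 from 0.0306 to 0.12 and that of Ctss from 0.0444 to 0.147. C1qc (0.0723 to 0.154), Fcgr1 (0.059 to 0.149), Coro1a (0.0526 to 0.0813) and Cd53 (0.0728 to 0.166) were called in none of these 5 fits. All 9 genes kept their direction in each of them. The median difference of the members lay between −0.26 and −0.19.

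Promoters of 6 called members are shown because PU.1, the factor on which these cells depend, binds a purine-rich box around GAGGAA. RefSeq starts on the GRCm38.p6 build were found for 24 of the 34 members, with 30 windows of 250 bases upstream of the start. The letters GAGGAA, searched on both strands, were in 19 of these 30 windows (63.3%) and in 23.3% of the 32851 windows of all genes. The longer run GAGGAAGT, which contains the first, was in 2 member windows (6.67%), those of C1qc and Pf4, and in 2.44% of all windows. A match is a description of the letters alone. In the sequences, written 5' to 3' on the strand of the gene, capitals mark GAGGAA or its reverse complement TTCCTC.
C1qc, chr4:136892915-136893164, minus strand: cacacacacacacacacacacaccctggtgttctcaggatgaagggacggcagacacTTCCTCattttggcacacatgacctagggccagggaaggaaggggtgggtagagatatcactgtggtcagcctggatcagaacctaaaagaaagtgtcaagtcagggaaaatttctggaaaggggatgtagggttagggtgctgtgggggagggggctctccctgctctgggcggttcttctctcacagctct
Fcgr1, chr3:96293970-96294219, minus strand: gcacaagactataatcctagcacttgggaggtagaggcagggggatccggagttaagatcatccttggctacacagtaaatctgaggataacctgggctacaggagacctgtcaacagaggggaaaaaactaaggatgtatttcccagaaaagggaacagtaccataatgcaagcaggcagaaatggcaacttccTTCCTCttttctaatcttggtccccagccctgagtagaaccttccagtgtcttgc
Ctss, chr3:95526536-95526785, plus strand: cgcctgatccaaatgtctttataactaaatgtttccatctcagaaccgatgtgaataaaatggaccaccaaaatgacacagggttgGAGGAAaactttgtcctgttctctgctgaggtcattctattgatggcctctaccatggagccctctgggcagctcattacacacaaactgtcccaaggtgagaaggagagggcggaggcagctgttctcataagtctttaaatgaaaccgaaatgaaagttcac
Laptm5, chr4:130913066-130913315, plus strand: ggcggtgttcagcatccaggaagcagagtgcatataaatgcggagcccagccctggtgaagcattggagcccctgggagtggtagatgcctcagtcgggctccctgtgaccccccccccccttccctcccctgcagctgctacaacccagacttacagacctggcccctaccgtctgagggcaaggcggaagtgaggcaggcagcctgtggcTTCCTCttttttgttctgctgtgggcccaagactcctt
Cd53, chr3:106790150-106790399, minus strand: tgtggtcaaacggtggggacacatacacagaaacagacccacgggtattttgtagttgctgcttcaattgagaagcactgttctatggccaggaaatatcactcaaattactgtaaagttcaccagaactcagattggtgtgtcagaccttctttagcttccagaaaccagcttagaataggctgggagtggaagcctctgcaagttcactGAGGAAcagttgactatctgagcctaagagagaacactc
Pf4, chr5:90772185-90772434, plus strand: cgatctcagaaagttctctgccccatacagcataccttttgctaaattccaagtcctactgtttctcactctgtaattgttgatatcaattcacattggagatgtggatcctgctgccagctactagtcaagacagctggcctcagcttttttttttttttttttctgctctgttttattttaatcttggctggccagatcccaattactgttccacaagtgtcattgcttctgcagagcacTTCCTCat
Each of these 6 windows holds the letters once, including that of Pf4, which rose while the other 5 genes fell. Neither of the 2 windows of Coro1a nor of Lcp1 holds them, and both windows of Dab2 do.

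Among the receptors that define the lineage, Csf1r binds the growth factors CSF1 and IL-34 that macrophages need to survive. Its log2 intensity was 8.60 and 8.14 in double mutant replicates 1 and 2 and 8.88, 9.06 and 9.06 in wild type replicates 1 to 3. Both double mutant arrays were below all wild type arrays, with a difference of −0.63 ± 0.16 (SE), which did not pass the test (adjusted p = 0.0716). Its dimmer probe sets differed by −0.51 and −0.14 (adjusted p = 0.178 and 0.658). Cx3cr1, the fractalkine receptor of macrophages and monocytes, read 6.16 in both double mutant arrays and 6.46, 6.23 and 5.32 in wild type. The groups overlapped, since wild type replicate 3 was the lowest of the 5 arrays (difference 0.15 ± 0.38, adjusted p = 0.808). Without that replicate the difference was −0.19, and on the dimmer Cx3cr1 probe set the double mutants, at 4.27 and 4.34, lay below wild type, at 5.40, 4.93 and 4.68 (−0.70 ± 0.23, adjusted p = 0.124).

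C1qa, C1qb and C1qc encode the chains of C1q, the complement component that tissue macrophages make and that tags dying cells. All 3 were lower in both double mutant arrays than in every wild type array. C1qc read 5.57 and 5.84 in the double mutant arrays against 6.37, 6.32 and 6.64 in the wild type arrays, and differed by −0.74 ± 0.14 (adjusted p = 0.0381). C1qa stood at 6.65 and 6.26 against 7.02, 6.99 and 7.18 (−0.61 ± 0.14, adjusted p = 0.0582). C1qb stood at 7.12 and 6.82 against 7.33, 7.56 and 7.53 (−0.50 ± 0.13, adjusted p = 0.0687), and its other probe sets at −0.52 and −0.35. With equal array medians, C1qa, C1qb and Csf1r were called as well (adjusted p = 0.0177, 0.0262 and 0.0213), and likewise when only probe sets above the array's median were tested (adjusted p = 0.0341, 0.0425 and 0.0424). Both settings raised the share of lower calls over the whole array. From 4287 of 45037 probe sets it went to 5849 with equal medians, and to 4369 of 22518 with the level filter.

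Activating receptors of these cells signal through small adaptors with an immune tyrosine motif. Fcgr1, the high-affinity IgG receptor, read 5.29 and 5.35 in the double mutant arrays against 5.65, 5.74 and 5.87 in wild type, with no overlap (−0.43 ± 0.08, adjusted p = 0.037), while its dimmer probe set differed by 0.038. The IgG receptor gene Fcgr3 differed by −0.25 (adjusted p = 0.0839), also without overlap. The adaptor genes Fcer1g and Tyrobp differed by −0.037 and −0.08, and Trem2, a lipid receptor that signals through the Tyrobp product, by −0.09, and the groups overlapped for these 3 genes (adjusted p = 0.798, 0.658 and 0.519). Tyrobp read 7.59 and 7.43 in double mutants against 7.48, 7.53 and 7.75 in wild type. So among the 5 members of this role 1 fell and 4 were not called.

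Scavenger and pattern receptors gave no calls with limma among 6 members, and none of the 6 reached an unadjusted p under 0.05. Mrc1, the mannose receptor of tissue-resident macrophages, had the widest spread between double mutant arrays of the 6, with 6.80 and 5.94 in double mutant replicates 1 and 2 and 6.82, 7.24 and 7.28 in wild type (−0.74 ± 0.31, adjusted p = 0.202). Double mutant replicate 1 lay just below the lowest wild type array, and replicate 2 far below. Cd14, which binds bacterial lipopolysaccharide with its co-receptors, differed by −0.29 and the scavenger receptor Msr1 by −0.18. Adgre1, which encodes the F4/80 antigen used to stain mouse macrophages, had means of 6.12 in the mutants and 6.11 in wild type. Cd68, a glycoprotein of macrophage lysosomes, differed by 0.10 and the lectin gene Cd33 by 0.16. The adjusted p of these 5 genes ran from 0.362 to 0.95.

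Genes of lysosomes and digestion were called lower in 2 of 3 cases. Ctss, the lysosomal protease cathepsin S, read 7.28 and 7.45 in the double mutant arrays against 7.94, 8.21 and 8.32 in wild type, a fall of 1.73-fold (−0.79 ± 0.14, adjusted p = 0.0311). Laptm5, a lysosomal membrane protein of blood cells, stood at 7.06 and 6.95 against 7.59, 7.59 and 7.86 on its brightest probe set (−0.67 ± 0.11, adjusted p = 0.0263). A dimmer Laptm5 probe set was called in the opposite direction, at 5.85 and 6.08 against 5.24, 5.50 and 5.26 (0.63 ± 0.12, adjusted p = 0.0381), and the 3 others differed by −0.19, 0.09 and 0.31 without a call. The direction for Laptm5 is therefore that of its brightest probe set only, and by the mean of its 5 probe sets the difference was 0.035. Lyz2, which encodes lysozyme of macrophages and granulocytes, was higher in both double mutant arrays, at 7.07 and 6.94, than in wild type, at 6.02, 6.55 and 6.56, and did not pass the test (0.63 ± 0.20, adjusted p = 0.116).

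Among genes for adhesion and the actin cortex, Lcp1 and Coro1a fell. Lcp1 encodes L-plastin, the actin-bundling protein of leukocytes, and read 7.25 and 7.33 in double mutants against 7.85, 7.98 and 8.0 in wild type (−0.65 ± 0.07, adjusted p = 0.0118). Its second probe set fell further, from 7.20, 7.41 and 7.17 in wild type to 4.24 and 4.80 in double mutants (−2.74 ± 0.20, adjusted p = 0.00715). The 2 probe sets had the same direction and differed in size, 1.57-fold against 6.70-fold. Coro1a encodes the actin-binding protein coronin 1A, also made by lymphocytes, and read 8.34 and 8.35 against 8.84, 8.70 and 8.77 (−0.42 ± 0.06, adjusted p = 0.0186), with −0.21 and −0.07 on its dimmer probe sets. Aif1, which encodes the actin-binding marker IBA1, differed by −0.06, Itgam by −0.17 and Itgb2 by 0.10, none of them called.

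The NADPH oxidase subunits were not called. Cyba, whose protein is also made outside blood cells, had means of 8.95 in the mutants and 8.98 in wild type (adjusted p = 0.774). Cybb, the catalytic subunit of phagocytes, read 4.40 and 4.26 in the double mutant arrays against 4.79, 4.63 and 5.03 in wild type, below the array's median, with a difference of −0.49 (adjusted p = 0.0911, and 0.0428 with equal array medians). Its 2 dimmer probe sets differed by 0.21 and −0.46.

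Surface proteins shared by many leukocytes gave 1 call among 3 genes. Cd53, a tetraspanin, read 6.06 and 6.00 in the double mutant arrays against 6.49, 6.35 and 6.62 in wild type (−0.46 ± 0.10, adjusted p = 0.044). Its dimmer probe set, near the floor, differed by −0.12 (adjusted p = 0.372). Ptprc, which encodes CD45 and defines blood cells other than erythrocytes and platelets, stood at 5.94 and 5.85 against 5.98, 6.04 and 6.30, without overlap but by a small margin (−0.21 ± 0.12, adjusted p = 0.306). Cd52, a small glycoprotein of lymphocytes and myeloid cells, was higher in both double mutant arrays, at 6.11 and 5.83 against 5.12, 5.47 and 5.54, and missed the threshold (0.59 ± 0.17, adjusted p = 0.0877). Cd53 missed the threshold with quantile normalization (adjusted p = 0.0505) and with an intensity trend (adjusted p = 0.054).

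Of the transcription factors, Spi1 read 5.72 and 5.85 in the double mutant arrays against 6.07, 6.01 and 6.12 in wild type (−0.28 ± 0.07, adjusted p = 0.0578), with no overlap, and it was called when only probe sets above the array's median were tested (adjusted p = 0.0477). Maf, which acts in macrophages and also in cartilage, lens and other tissues, had means of 8.82 in the mutants and 8.89 in wild type on its brightest probe set (adjusted p = 0.749). Its 5 dimmer probe sets differed by −0.75 to 0.30, none of them called.

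**Figure D2:**
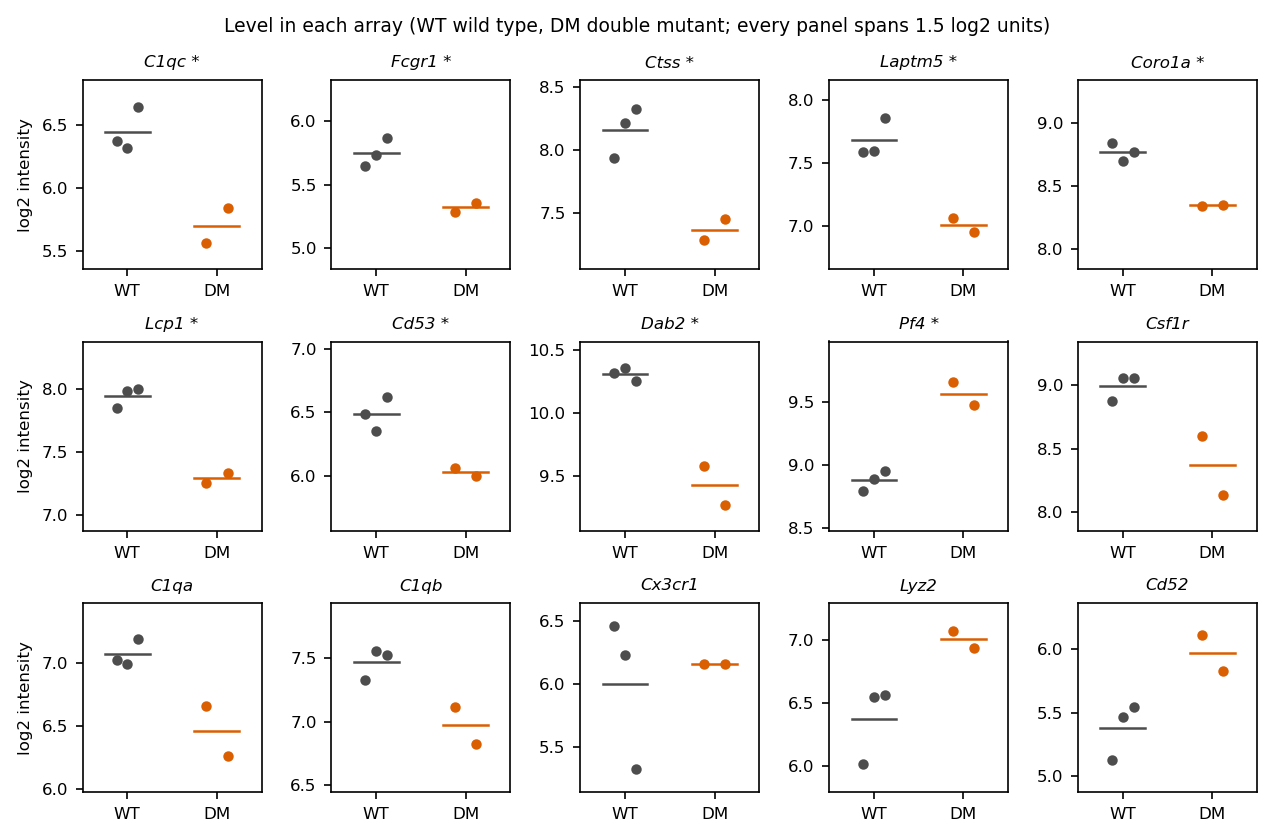
Log2 intensity in each array (points) with the group mean (lines) for the 9 called members, marked by an asterisk, and for Csf1r, C1qa, C1qb, Cx3cr1, Lyz2 and Cd52; WT is wild type (3 arrays) and DM double mutant (2 arrays), and each panel spans 1.5 log2 units. The groups are separate in every panel but that of Cx3cr1, with Pf4, Lyz2 and Cd52 higher in double mutants; Lyz2 and Cd52 were picked for display after their values were seen.

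The members that other cell types also make gave a call in each direction. Dab2, an endocytic adaptor found in fetal macrophages and in endoderm and mesenchyme, fell on its brightest probe set from 10.32, 10.36 and 10.26 in wild type to 9.58 and 9.28 in double mutants (−0.88 ± 0.11, adjusted p = 0.0146). Its other probe sets did not share a direction. The third fell from 7.87, 7.75 and 6.84 to 5.18 and 5.17 (−2.31 ± 0.35, adjusted p = 0.0224), the fourth rose from 5.38, 5.02 and 5.05 to 7.97 and 7.14 (2.41 ± 0.29, adjusted p = 0.0144), and the second differed by −0.05 (adjusted p = 0.921). F13a1, a clotting factor subunit made by macrophages and megakaryocytes, had means of 7.59 in the mutants and 7.63 in wild type (adjusted p = 0.614). Pf4, a chemokine stored in platelet granules and made by megakaryocytes and some fetal macrophages, rose from 8.80, 8.89 and 8.95 to 9.66 and 9.47 (0.69 ± 0.09, adjusted p = 0.0152). Outside these 3 genes, 7 of 31 members fell (22.6%, against 8.14% of all genes) and none was called higher, with 2 higher at an unadjusted p under 0.05.

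Probe sets of 1 gene often gave different sizes. Of the 34 members, 14 had 2 or more probe sets, and of their 29 dimmer probe sets 2 were called lower and 2 higher with limma, where 15% and 8.66% of the dimmer probe sets of all genes were called. The 2 lower ones belong to Lcp1 and Dab2 and the 2 higher ones to Laptm5 and Dab2. On the second brightest probe set, 11 of 14 genes differed below 0 and 1 was called, Lcp1. By the mean of all probe sets of a gene, C1qa, C1qc, Ctss, Coro1a, Lcp1 and Spi1 were called lower and Pf4 higher. Genomic places of the probes were not used here, and what sets probe sets of a gene apart was not tested.

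**Figure D3:**
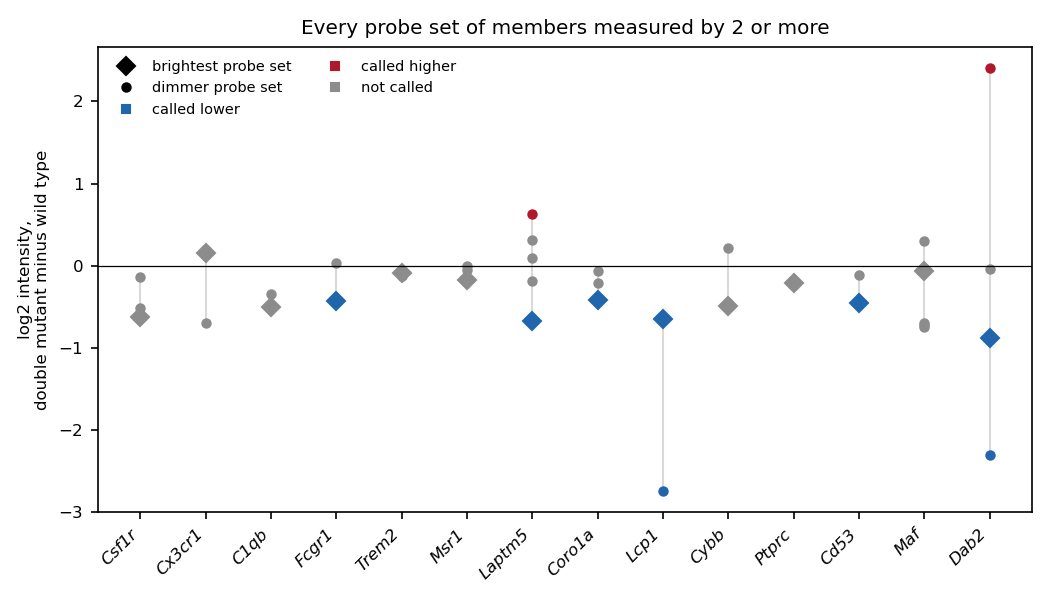
Difference between double mutant and wild type arrays (y axis, log2 intensity) on every probe set of the 14 members with 2 or more, with a diamond for the brightest, circles for the others and colour for the call. Dab2 spans −2.31 to 2.41 and Lcp1 −2.74 to −0.65, while the probe sets of Trem2, Msr1 and Ptprc lie close together.

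Replicates differed among themselves too. The mean level of the 34 members was 6.54 and 6.43 in double mutant replicates 1 and 2 and 6.63, 6.71 and 6.78 in wild type replicates 1 to 3, so that every double mutant array lay below every wild type array. Over all genes these means were 6.94 and 6.92 against 6.92 to 6.98. Double mutant replicate 2 was below replicate 1 in 20 of 34 members (58.8%), against 44.9% of all genes, and the gap was wide for Mrc1, for Cd68 at 6.67 and 5.99 and for Cd14 at 5.89 and 5.30. Wild type replicate 1 was the lowest of its group in 20 members (58.8%), against 42.2% of all genes. The number of arrays limits the precision of every value.

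Further macrophage genes outside the 34 were called in both directions. Of 46 measured, 11 fell, 3 rose and 32 were not called, with a median difference of −0.12. The shares were 23.9% lower and 6.52% higher, against 8.14% and 6.56% of all genes. Of 36 dimmer probe sets of these genes 7 were called lower and 0 higher, where 15% and 8.66% of the dimmer probe sets of all genes were. This list too was chosen with earlier results of these data known. Ctsb, the lysosomal protease cathepsin B, fell by 0.88 ± 0.07 (SE) on the log2 scale, and Arhgdib, a gene expressed widely in blood cells, by 0.81 ± 0.07 (adjusted p = 0.00729 and 0.00799). Plek, which encodes pleckstrin, a major kinase substrate of platelets that leukocytes also make, stood 0.68 ± 0.06 higher on its brightest probe set (adjusted p = 0.00905). Its second probe set was called in the opposite direction, at −0.96 (adjusted p = 0.0196), and the third stood at −0.59 (adjusted p = 0.211), so that the probe sets of Plek give no single direction. The other genes called were named after their values were seen. Hmox1 (−1.15), which degrades heme, Axl (−0.95), a receptor for dying cells, Rac2 (−0.78), a GTPase of the phagocyte oxidase, and Apoe (−0.66) were lower, together with Ctsd, Slc11a1, Lgmn, Sirpa and Fcrls at −0.53 to −0.34. H2-Ab1, of the class II antigen presentation genes, and Mertk, a further receptor for dying cells, were higher (0.64 and 0.51). The level of H2-Ab1 was below the array's median, and its dimmer probe sets stood at −0.10 and 0.30 without a call. Many of these genes, such as Ctsb, Ctsd, Axl and Apoe, are also expressed outside macrophages.

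Signals that recruit or maintain macrophages were followed as well, and which cells of the bud made them was not measured. Of 19 measured ligands and related genes 2 fell and 17 were not called, and these 10.5% lie near the 8.14% of all genes called lower. Tgfb1, a cytokine made by many cells, fell by 1.02 ± 0.13 on its brightest probe set (adjusted p = 0.0158). Its other probe set, below the array's median level, went the opposite way without overlap or call (0.34, adjusted p = 0.0703). Cxcl12, a chemokine of mesenchyme that attracts blood cells, fell by 0.46 ± 0.10 (adjusted p = 0.0474). The second Cxcl12 probe set was also called lower (−0.63, adjusted p = 0.0103), and the third stood at −0.07. The 2 ligands of Csf1r were not called, on their brightest probe sets, with Csf1 at −0.31 (adjusted p = 0.236) and Il34 at 0.13 (adjusted p = 0.363), nor was Cx3cl1, the ligand of Cx3cr1, at 0.16 (adjusted p = 0.582). All 4 probe sets of Csf1 lay below 0, and the dimmest, which is below the array's median level, was called lower (−0.40, adjusted p = 0.0183).

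Some markers of other blood and vessel cells were called as well, on their brightest probe sets. Over all genes 8.14% were called lower and 6.56% higher, and over all dimmer probe sets 15% and 8.66%. In the lists below, 27.3% of the erythroid and 50% of the endothelial genes were called lower. Of the megakaryocyte and platelet genes, 30% were called higher. In the erythroid list 3 of 11 measured genes fell, with a mean level of 8.63 and 8.89 in double mutants and 9.12 to 9.28 in wild type. Alas2, the first enzyme of heme synthesis in red cells, fell by 1.89 ± 0.11, the anion exchanger gene Slc4a1 by 1.04 ± 0.11 and the embryonic globin gene Hba-x by 0.45 ± 0.06. The globin genes Hbb-y and Hbb-bh1 differed by −0.013 and −0.022, and the second Slc4a1 probe set by −0.25, none of them called. Hbb-y, Hbb-bh1 and Hba-x were among the brightest of the array, at level percentiles of 100, 99.7 and 99.8. Whether such probe sets were saturated was not tested. The difference was below 0 in 10 of the 11 erythroid genes and above 0 in 1. In the endothelial list 6 of 12 fell, with a mean of 7.44 and 7.54 against 7.86 to 7.96. Pecam1, an adhesion molecule of endothelium, platelets and leukocytes, fell by 1.98 ± 0.13, the receptor gene Tie1 by 0.96 ± 0.10 and the junction gene Esam by 0.38 ± 0.06. The other 6 were not called, with Erg at −0.25, Cdh5 at −0.062, Tek at −0.059, Kdr at −0.028, Egfl7 at 0.10 and Flt1 at 0.23. Dimmer probe sets of the endothelial genes were called in both directions, with 3 higher, all of Egfl7 (0.30, 0.67 and 0.55), and 1 lower. The lower one was the second of Erg (−1.36, adjusted p = 0.0124). The second Cdh5 probe set stood at −0.86 without overlap or call (adjusted p = 0.0513), and dimmer ones of Flt1 ran from −0.73 to 0.31, none called. Of 10 megakaryocyte and platelet genes 3 were called higher and 7 were not called, with 5 differences above 0 and 5 below, a median difference of −0.0032, and a mean of 6.09 and 6.13 against 5.92 to 6.00. Clec1b, the platelet receptor CLEC-2, rose by 1.28 ± 0.15, Ppbp, a platelet chemokine, by 0.77 ± 0.12 and Treml1 by 0.34 ± 0.06, as did Pf4, while Vwf stood at −0.47 and Gp5 at −0.18 with no call (adjusted p = 0.269 and 0.214). The part of these cells in the differences of the members was not tested.

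Lists for other leukocytes were mostly dim. In the neutrophil list 1 of 11 fell (9.09%, against 8.14% of all genes), Mpo, the granule peroxidase (−1.31 ± 0.26, adjusted p = 0.0395), and the mean was 4.22 and 4.49 in double mutants and 4.53 to 4.98 in wild type, with 1 of 11 genes above the array's median. In the mast cell list 2 of 10 fell (20%, against the same 8.14%), Ms4a2 and Cma1, both near the floor. All 10 differences were below 0, and in 60% of the genes both double mutant arrays lay below wild type, against 23% of all genes. Of 5 dimmer probe sets 1 was called lower, of Kit and above the array's median level (−1.48, adjusted p = 0.0237). Another, of Hdc, was called higher (0.23, adjusted p = 0.0438). The mean was 4.52 and 4.59 against 4.73 to 4.93. In the lymphoid list limma called none of 10, with 1 at an unadjusted p under 0.05, and the mean was 4.37 in both double mutant arrays and 4.38 to 4.46 in wild type. Among the structural tissues, limma called none of 12 mesenchymal markers on their brightest probe sets, with 1 at an unadjusted p under 0.05. Of 22 dimmer probe sets of these genes 6 were called lower and 1 higher, where 15% and 8.66% of the dimmer probe sets of all genes were. Those called lower included probe sets of Hoxd13 (−3.60, adjusted p = 0.0068), Prrx1 (−2.64, adjusted p = 0.0152) and Pdgfra (−2.51, adjusted p = 0.0257). Tbx3 had 1 probe set called lower (−1.51) and 1 called higher (0.87). On brightest probe sets 4 of 12 ectodermal markers were higher (Epcam, Esrp1, Trp63 and Cdh1). That is 33.3%, against 6.56% of all genes and 9.52% of genes above the array's median level, where all 12 markers lay. Their list had a mean of 8.94 and 9.04 against 8.54 to 8.66, while a dimmer probe set of Trp63 was called lower (−1.90, adjusted p = 0.0357). What part the makeup of the tissue had in the differences of the members was not tested.

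**Figure D4:**
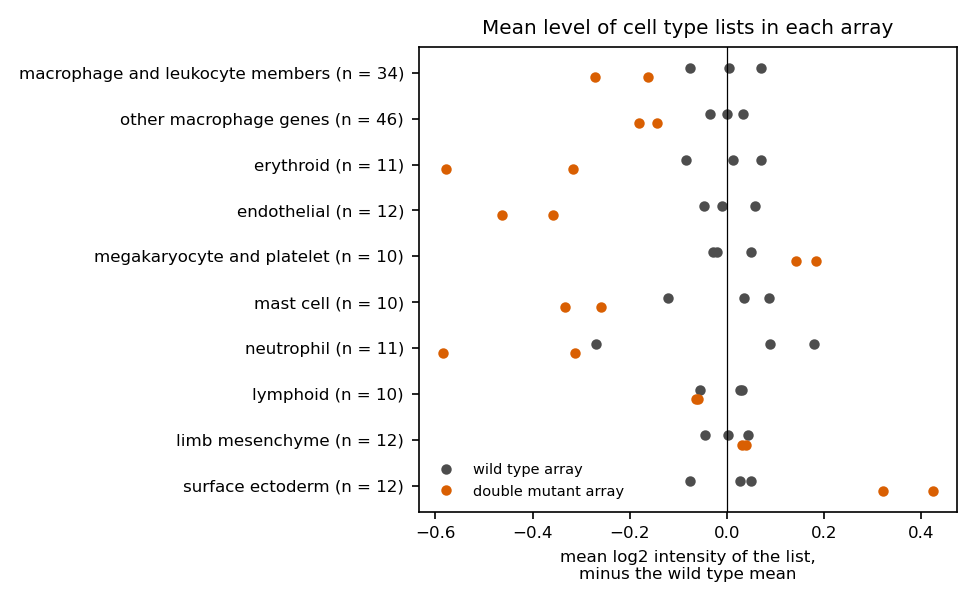
Mean log2 intensity of each cell type list in each array, minus the wild type mean of that list, for 3 wild type arrays (grey) and 2 double mutant arrays (orange), with the number of measured genes beside each name. Double mutant arrays lie below wild type for the members, the other macrophage genes and the erythroid, endothelial, mast cell and neutrophil lists, and by a small margin for the lymphoid list. They lie above for the megakaryocyte and platelet and the ectodermal lists.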

How the data were processed

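Total RNA of E11.5 forelimbs was labelled with biotin by a kit with repeated amplification, per the labels' protocols. The authors deposited linear intensities, 1 per probe set and array. RMA and limma are named in the submitters' processing notes, without version or role, and further steps are not given in the sources used here. RMA returns log2 values, so a return to the linear scale must have followed. Array medians ran from 39.4 to 44.4, and log2 was taken with no further normalization or filter. Of 45101 probe sets, 64 controls were left out. Of the 45037 tested, 34945 had 1 gene symbol, 932 several and 9160 none, per the platform annotation, and only those with 1 were named.

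The genotypes were tested with limma 3.58.1 (R 4.3.3, 1 mean per genotype, empirical Bayes, 3 residual and 1.29 prior degrees of freedom). Tests were two-sided, with Benjamini-Hochberg adjustment over every tested probe set. Levels are mean log2 intensities, and differences are double mutant minus wild type with limma's SE. The fit was tested on simulated data. The labels do not say whether embryos shared a litter.

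The members and all lists were chosen with earlier results of these data known. All members were to be named, with array values for Csf1r, Cx3cr1, C1qc, called members and those with opposite calls, and from each other list up to 3 called genes with the smallest p. Promoters came from RefSeq (GRCm38.p6), without the 50 bases after the start. Alternatives were other scaling, an added constant of 16, a trend, a level filter, a replicate block, other choices of probe set, and each array left out.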

Additional observations from a re-analysis of the deposited data

Results flagged for a closer look

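The poly-A spike-ins, control RNAs added before labelling of which only Dap was compared above, stood higher in the double mutant arrays than in wild type. Mean log2 levels in double mutants and wild type were 7.09 and 3.30 for Dap, 5.23 and 3.50 for Thr, 5.35 and 3.54 for Phe, and 4.86 and 3.31 for Lys. Other control probe sets were lower in double mutants. Their means were 7.95 and 8.36 for BioB, 9.45 and 9.73 for BioC, 11.18 and 11.57 for BioD, and 13.54 and 13.79 for Cre. What part such shifts had in the differences of the members was not tested.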

How the results depend on the processing

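The median difference of the members kept its sign under all 13 alternatives (−0.28 to −0.14). Members called lower numbered 7 to 12, and members called higher 1, with equal array medians, quantile normalization, an added constant of 16, an intensity trend or only probe sets above the median level, and 6 and 1 by the mean of all probe sets. The count of 12 came with equal medians and with the level filter. There, 5849 of 45037 and 4369 of 22518 probe sets were called lower, against 4287 of 45037 in the main fit. With the second brightest probe set of 14 members there were 1 lower and 0 higher, and limma gave 2 lower and 0 higher at an unadjusted p under 0.05. With a replicate block over the 4 arrays of numbers 1 and 2, limma called 0 members lower and 0 higher (10 and 1 at an unadjusted p under 0.05), and 1329 probe sets lower and 1022 higher, against 4287 and 3919 without it. That fit has fewer arrays, and same-numbered arrays deviated together with a correlation of 0.12 over probe sets, on 1 pair of numbers, so the numbers were not taken to pair the samples. With 1 array left out, members called lower ran from 0 to 3, members called higher from 0 to 1, probe sets called lower from 0 to 3198 and higher from 0 to 1963. The cause was not tested.

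The differences below changed sign, with no call under the alternative that turned them. Of these members only Laptm5 (−0.67) and Fcgr1 (−0.43) were called on the brightest probe set. With an array left out they ran from −0.24 to 0.43 for Cd68, −0.082 to 0.11 for Adgre1, −0.11 to 0.049 for Cyba, −0.16 to 0.0016 for Tyrobp, −0.59 to 0.0033 for Cd14, −0.16 to 0.028 for Maf, −0.16 to 0.016 for Aif1, −0.19 to 0.38 for Cx3cr1 and −0.10 to 0.020 for Fcer1g. With quantile normalization Fcer1g stood at 0.021, Tyrobp at 5e-04, Adgre1 at −0.0046, Cyba at 0.021 and F13a1 at 0.044. Equal array medians put Adgre1 at −0.078. The replicate block put Cx3cr1 at −0.19, Fcer1g at 0.020, Tyrobp at 0.0016 and Maf at 0.028. By the mean of all probe sets Cx3cr1 stood at −0.27 and Laptm5 at 0.035, and by the second brightest Cx3cr1 at −0.70, Fcgr1 at 0.038, Laptm5 at 0.094 and Cybb at 0.21. The calls of Laptm5 and Fcgr1 thus held on their brightest probe sets only. No dimmer probe set of Coro1a or Cd53 was called either, though their differences stayed below 0.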
